A study of Mus musculus with 21 samples.

Results

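The longest hypomethylated regions of intestinal adenoma were taken from a genome-wide comparison of DNA methylation between normal intestine and adenoma of APCMin mice. They are the 373 merged differentially methylated regions (DMRs) of at least 1000 bp with lower signal in adenoma, out of 8845 hypomethylated and 13980 DMRs in all. They made up 4.22% of the hypomethylated DMRs and, with 385.25 kb, 7.55% of their bases. The members were chosen by the same measurement that is described here: a region enters the table only if its signal was lower in adenoma, and it becomes long only if several neighbouring windows pass. The values of adenoma against normal tissue are therefore a description and carry no test.

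Methylated DNA immunoprecipitation with sequencing (MeDIP-seq) was performed on the ileum of male C57BL/6J mice aged 15 to 19 weeks. Normal intestine came from 3 wildtype mice of genotype Apc-+/+ (B1, B2, B3; called B6 normal) and from 3 mice of genotype Apc-Min/+ (N4, N5, N6; called APCMin normal), and 5 adenomas came from 4 Apc-Min/+ mice (Ad4, Ad4-1, Ad5, Ad6, Ad7). Ad4 and Ad4-1 are separate adenomas of the animal that gave N4, Ad5 and Ad6 came from the animals of N5 and N6, and Ad7 had no matched normal sample. Libraries carry 4 set numbers: B1, B2, N4, Ad4 and Ad4-1 share set 4, N5, N6 and Ad5 share set 9, B3 and Ad6 share set 10, and Ad7 alone has set 2. The Min mice carry the mutant allele in every cell of the body, and the samples are pieces of tissue with all their cell types. No expression value was used, so the tissue labels could not be checked against marker genes.

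DNA methylation in mammals sits mainly on the cytosine of CpG dinucleotides, and most CpGs outside CpG islands are methylated in adult tissue. Active enhancers and promoters usually carry less of it than their surroundings. In the Min mouse, loss of the remaining Apc allele leaves beta-catenin undegraded, and the Wnt target genes that TCF/LEF factors control stay on in the adenomas that follow. MeDIP enriches DNA fragments with an antibody against 5-methylcytosine, so the signal of a region depends on how many of its CpGs are methylated and on how many CpGs it holds. Levels of different regions are for that reason not methylation percentages, and comparisons below are made within a region or between sets described with their CpG content.

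The sequences that carry the main results are given first, as 300 bp stretches with the most CpG sites of 10 regions, read on the plus strand of mm9. Sdc1, Dusp6, Pla2g5 and Pmepa1 hold the largest proportional falls among separated regions with at least 0.5 rpm in normal tissue, Wipf1, D8Ertd82e and Cdc42bpg lie in the longest regions, Ckap4 is among those with the most CpGs, and Fxyd3 and Plek2 lie at promoters. Capitals mark CpG sites.
Sdc1, chr12:8781926-8782225: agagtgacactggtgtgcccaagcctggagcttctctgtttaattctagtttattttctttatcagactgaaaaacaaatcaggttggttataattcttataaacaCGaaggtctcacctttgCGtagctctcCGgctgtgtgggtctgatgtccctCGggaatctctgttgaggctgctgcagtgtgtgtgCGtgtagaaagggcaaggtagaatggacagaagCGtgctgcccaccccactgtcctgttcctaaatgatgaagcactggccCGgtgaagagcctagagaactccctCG
Dusp6, chr10:98728602-98728901: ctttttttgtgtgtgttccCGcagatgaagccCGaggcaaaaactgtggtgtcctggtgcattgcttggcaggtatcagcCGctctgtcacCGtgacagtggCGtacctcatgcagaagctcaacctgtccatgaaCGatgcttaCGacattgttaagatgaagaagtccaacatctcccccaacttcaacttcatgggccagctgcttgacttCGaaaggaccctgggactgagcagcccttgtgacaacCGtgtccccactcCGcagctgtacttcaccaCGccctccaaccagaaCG
Pla2g5, chr4:138388073-138388372: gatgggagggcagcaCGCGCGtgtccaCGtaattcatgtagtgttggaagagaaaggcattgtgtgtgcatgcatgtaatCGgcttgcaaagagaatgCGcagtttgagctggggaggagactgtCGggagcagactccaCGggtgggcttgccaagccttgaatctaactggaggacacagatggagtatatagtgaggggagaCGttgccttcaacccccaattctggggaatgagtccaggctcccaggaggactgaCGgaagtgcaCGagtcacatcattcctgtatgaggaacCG
Pmepa1, chr2:173079362-173079661: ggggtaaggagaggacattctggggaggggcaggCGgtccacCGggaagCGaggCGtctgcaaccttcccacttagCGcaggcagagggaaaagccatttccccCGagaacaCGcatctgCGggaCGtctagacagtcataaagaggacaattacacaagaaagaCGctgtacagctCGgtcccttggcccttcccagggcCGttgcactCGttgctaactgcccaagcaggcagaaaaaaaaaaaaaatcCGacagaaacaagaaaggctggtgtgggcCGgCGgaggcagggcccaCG
Wipf1, chr2:73365943-73366242: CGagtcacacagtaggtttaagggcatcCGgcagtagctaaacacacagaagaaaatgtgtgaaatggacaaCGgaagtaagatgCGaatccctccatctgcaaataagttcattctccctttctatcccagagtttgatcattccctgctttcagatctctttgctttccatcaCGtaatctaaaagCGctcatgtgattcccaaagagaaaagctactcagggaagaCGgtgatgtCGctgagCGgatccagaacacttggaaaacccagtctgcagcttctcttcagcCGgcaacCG
D8Ertd82e, chr8:37209952-37210251: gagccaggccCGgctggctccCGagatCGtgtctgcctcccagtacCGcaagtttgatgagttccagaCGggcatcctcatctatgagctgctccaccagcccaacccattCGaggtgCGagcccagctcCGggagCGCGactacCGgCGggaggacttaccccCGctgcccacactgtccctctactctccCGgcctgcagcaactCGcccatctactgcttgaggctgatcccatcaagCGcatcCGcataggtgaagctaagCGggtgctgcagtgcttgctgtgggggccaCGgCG
Cdc42bpg, chr19:6321864-6322163: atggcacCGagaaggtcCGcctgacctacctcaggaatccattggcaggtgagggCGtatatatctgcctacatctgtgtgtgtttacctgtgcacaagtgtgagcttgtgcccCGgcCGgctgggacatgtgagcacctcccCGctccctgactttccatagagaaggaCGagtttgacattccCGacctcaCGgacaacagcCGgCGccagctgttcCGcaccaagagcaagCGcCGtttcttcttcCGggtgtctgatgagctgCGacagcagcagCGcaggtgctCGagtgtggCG
Ckap4, chr10:83996200-83996499: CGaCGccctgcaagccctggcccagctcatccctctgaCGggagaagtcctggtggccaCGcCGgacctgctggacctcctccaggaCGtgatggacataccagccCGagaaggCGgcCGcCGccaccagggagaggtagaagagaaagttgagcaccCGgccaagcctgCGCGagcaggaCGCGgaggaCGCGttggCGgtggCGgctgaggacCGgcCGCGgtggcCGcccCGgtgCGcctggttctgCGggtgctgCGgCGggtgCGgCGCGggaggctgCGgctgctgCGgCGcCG
Fxyd3, chr7:31862369-31862668: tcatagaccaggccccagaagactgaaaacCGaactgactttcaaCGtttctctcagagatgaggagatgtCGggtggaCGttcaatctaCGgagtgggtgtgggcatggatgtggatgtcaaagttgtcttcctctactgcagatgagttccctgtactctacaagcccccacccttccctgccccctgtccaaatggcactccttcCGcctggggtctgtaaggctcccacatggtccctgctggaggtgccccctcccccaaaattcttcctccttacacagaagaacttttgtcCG
Plek2, chr12:80008313-80008612: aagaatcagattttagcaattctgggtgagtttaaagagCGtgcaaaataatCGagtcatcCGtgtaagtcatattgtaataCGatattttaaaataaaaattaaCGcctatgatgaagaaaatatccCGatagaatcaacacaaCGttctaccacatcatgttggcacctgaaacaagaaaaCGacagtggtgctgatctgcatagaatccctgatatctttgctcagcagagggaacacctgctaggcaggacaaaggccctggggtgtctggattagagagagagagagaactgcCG

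The recognition sequence TGANTCA of the AP-1 factors, the Fos and Jun proteins that act downstream of growth factor signalling, was more frequent in hypomethylated regions than in the genome, as described below. The stretches of 47 bp that follow show it, in capitals, on the plus strand of mm9 in the 3 regions with a match that had the lowest adenoma to normal ratio.
intergenic, Auh the nearest gene, chr13:52924401-52924447: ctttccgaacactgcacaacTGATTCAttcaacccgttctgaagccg
intergenic, Auh the nearest gene, chr13:52924437-52924483: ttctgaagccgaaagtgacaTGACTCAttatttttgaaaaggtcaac
intergenic, Nfe2l2 the nearest gene, chr2:75595612-75595658: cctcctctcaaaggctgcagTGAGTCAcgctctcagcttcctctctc
Tnfrsf11a, chr1:107710071-107710117: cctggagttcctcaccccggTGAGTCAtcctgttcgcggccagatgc
The motifs of the first pair lie at -76 and -40 bp from the middle of a single region between genes, chr13:52924001-52925000, whose signal ranged from 0.31 to 0.45 rpm in normal tissue and from 0.08 to 0.25 rpm in adenoma.

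Averaged over the 373 regions, the signal in adenoma was 0.385 ± 0.0267 rpm (SD, n = 5), against 0.718 ± 0.0324 rpm (n = 3) in B6 normal and 0.678 ± 0.00924 rpm (n = 3) in APCMin normal intestine. The unit rpm is read coverage scaled to 1000000 uniquely aligned reads of the library. The lowest of the 6 normal samples was N4 at 0.668 rpm and the highest B3 at 0.756 rpm, with B1, B2, N5 and N6 at 0.697, 0.702, 0.680 and 0.687 rpm. The adenomas lay at 0.349 rpm (Ad4-1), 0.365 (Ad5), 0.397 (Ad7), 0.405 (Ad4) and 0.409 (Ad6), so the highest adenoma lay well under the lowest normal sample. A lower signal in all cells of a sample and loss in only some of its cells cannot be told apart in such tissue pieces.

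**Figure D1:**
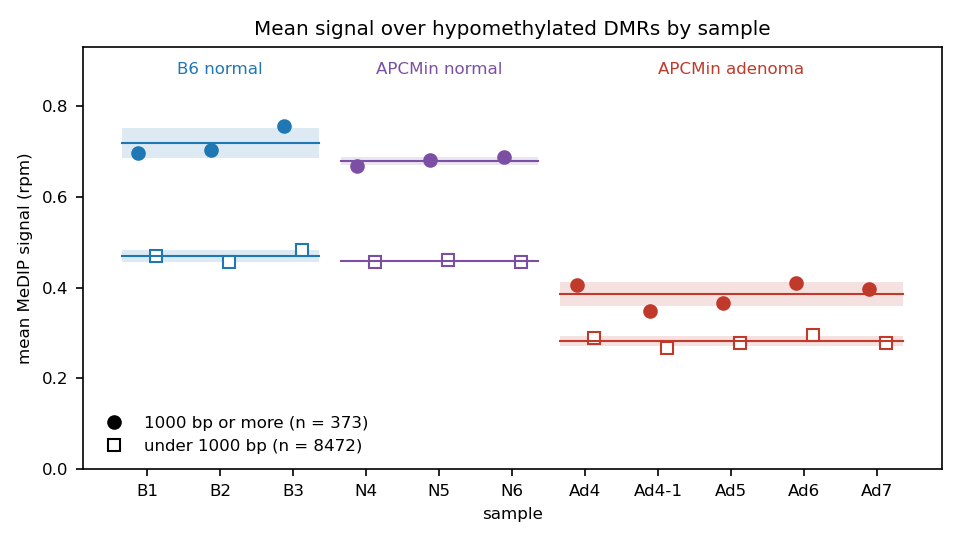
Mean MeDIP signal in rpm (vertical axis) of each of the 11 samples (horizontal axis) over the 373 hypomethylated DMRs of 1000 bp or more (filled circles) and the 8472 shorter ones (open squares), with lines for group means and shading for 1 SD. The long regions stand at 0.668 to 0.756 rpm in the normal samples and 0.349 to 0.409 rpm in the adenomas, the shorter ones at a mean of 0.464 rpm in normal tissue and 0.282 rpm in adenoma.

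Of the 373 regions, 332 were 1000 bp long, 34 were 1.25 kb, 6 were 1500 bp and 1 was 1750 bp. The median region had 0.64 rpm in normal tissue and 0.348 rpm in adenoma, and its log2 ratio of adenoma to normal means, computed after adding 0.05 rpm to both, was -0.78, with a range from -1.65 to -0.38. Adenoma kept a median of 54.6% of the normal mean, from 25.6% to 74.6%. It kept at most 50% in 121 regions (32.4%), against 24.7% of the 750 bp and 17.7% of all shorter hypomethylated DMRs. Just outside the length limit, the 1926 regions of 750 bp had medians of 0.49 rpm in normal tissue, 0.273 rpm in adenoma and -0.71 for the log2 ratio. Just inside it, the 332 regions of 1000 bp had 0.64 rpm, 0.354 rpm and -0.77. Across the limit the levels were higher and the ratio slightly lower.

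In 301 of the 373 regions (80.7%) every adenoma lay below every normal sample, against 51.9% of all 8845 hypomethylated DMRs. The share was 77.3% at 750 bp, 78.3% at 1000 bp, and all 41 longer regions were separated in this way. In 68 of the other 72 long regions a single adenoma reached the lowest normal sample. Over all 72, Ad6 reached it in 25, Ad4 in 15, Ad5 and Ad7 in 13 each, and Ad4-1 in 10, so the exceptions were spread over all 5 adenomas. These counts describe the regions as selected and support nothing about them.

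The regions of 1500 bp or more lay in 7 genes. The longest, 1750 bp at chr8:37209251-37211000, had its middle in exon 6, the last exon of D8Ertd82e, and held 70 CpG sites, the most of any. Its signal ran from 0.61 to 0.87 rpm in normal samples (median 0.67) and was 0.40, 0.48, 0.45, 0.50 and 0.45 rpm in Ad4, Ad4-1, Ad5, Ad6 and Ad7. The groups did not overlap, but the log2 ratio of -0.56 was one of the smaller falls. The other 6, each 1500 bp, had log2 ratios from -1.11 to -0.47.

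Wipf1 encodes a partner of the WASP proteins that start actin filaments. In its first intron, at chr2:73365001-73366500, normal samples ranged from 0.34 to 0.58 rpm (median 0.41) and adenomas from 0.09 rpm in Ad4-1 to 0.21 rpm in Ad7, with a log2 ratio of -1.11. Bhlhe40 encodes a transcriptional repressor of the circadian and stress responses, and the middle of its region lay in its last exon. That region had 0.54 to 0.81 rpm in normal tissue (median 0.605) and 0.26 to 0.31 rpm in adenoma (log2 ratio -1.07). The 5 adenomas were within 0.05 rpm of each other there. Adamts14 encodes a protease that trims procollagen, and its intron 4 held 0.38 to 0.67 rpm (median 0.615) in normal samples and 0.21 to 0.37 rpm in adenomas. The highest adenoma there, Ad5, was 0.01 rpm below its own normal sample, N5.

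C530008M17Rik held a region with 0.89 to 1.34 rpm in normal tissue (median 1.22) and 0.62 to 0.77 rpm in adenoma. Cdc42bpg, a kinase that responds to the small GTPase Cdc42, held 0.98 to 1.22 rpm (median 1.09) against 0.60 to 0.73 rpm in a region with 50 CpG sites. The smallest fall among the longest regions was at intron 11 of Ebf3, an early B-cell factor family transcription factor, from 0.432 ± 0.0504 rpm (n = 6) to 0.298 ± 0.0377 rpm (n = 5), a log2 ratio of -0.47. None of these 7 regions was among the 6 described next.

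The largest proportional falls, among separated regions with at least 0.5 rpm in normal tissue, were in Sdc1, Dusp6, Pla2g5, Pmepa1 and Sipa1l3 and in a stretch between genes. Sdc1 encodes syndecan-1, a heparan sulphate proteoglycan on the surface of epithelial and plasma cells. In its first intron, at chr12:8781751-8782750, the B6 samples had 0.64, 0.76 and 0.58 rpm, the APCMin normal samples 0.35, 0.51 and 0.40 rpm, and the adenomas 0.12, 0.12, 0.12, 0.18 and 0.15 rpm. The highest adenoma, Ad6, was thus well under the lowest normal sample, N4. Adenoma kept 25.6% of the normal mean (0.138 ± 0.0268 against 0.540 ± 0.153 rpm), a log2 ratio of -1.65 and the lowest of all 373.

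Dusp6 encodes the phosphatase that switches off ERK and is itself induced by ERK signalling. The region at chr10:98728251-98729500 reached its last exon and had 0.73, 1.04 and 1.05 rpm in B6 normal, 0.80, 0.55 and 0.63 rpm in APCMin normal, and 0.24, 0.25, 0.28, 0.26 and 0.20 rpm in adenoma. Adenomas were close together, with an SD of 0.0297 rpm, while normal samples had an SD of 0.208 rpm. The log2 ratio was -1.52.

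Pla2g5 encodes a secreted phospholipase that releases fatty acids from membranes. Its first intron held 0.89 to 1.31 rpm in normal samples (median 1.19) and 0.29 to 0.49 rpm in adenomas, with a log2 ratio of -1.46. Here the 2 normal groups were alike, at 1.15 ± 0.225 rpm in B6 and 1.16 ± 0.0985 rpm in APCMin mice. Between genes at chr12:118686001-118687000, with Rapgef5 as the nearest gene at 68.5 kb, all 6 normal samples lay between 0.66 and 0.74 rpm, and adenomas ranged from 0.12 rpm in Ad4-1 to 0.31 rpm in Ad6 and Ad7 (log2 ratio -1.32). In an intron of Sipa1l3, a relative of proteins that inactivate the small GTPase Rap, normal samples spread from 0.41 to 1.04 rpm and adenomas from 0.11 to 0.40 rpm, so that the lowest normal sample, B3, was 0.01 rpm above the highest adenoma, Ad6.

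**Figure D2:**
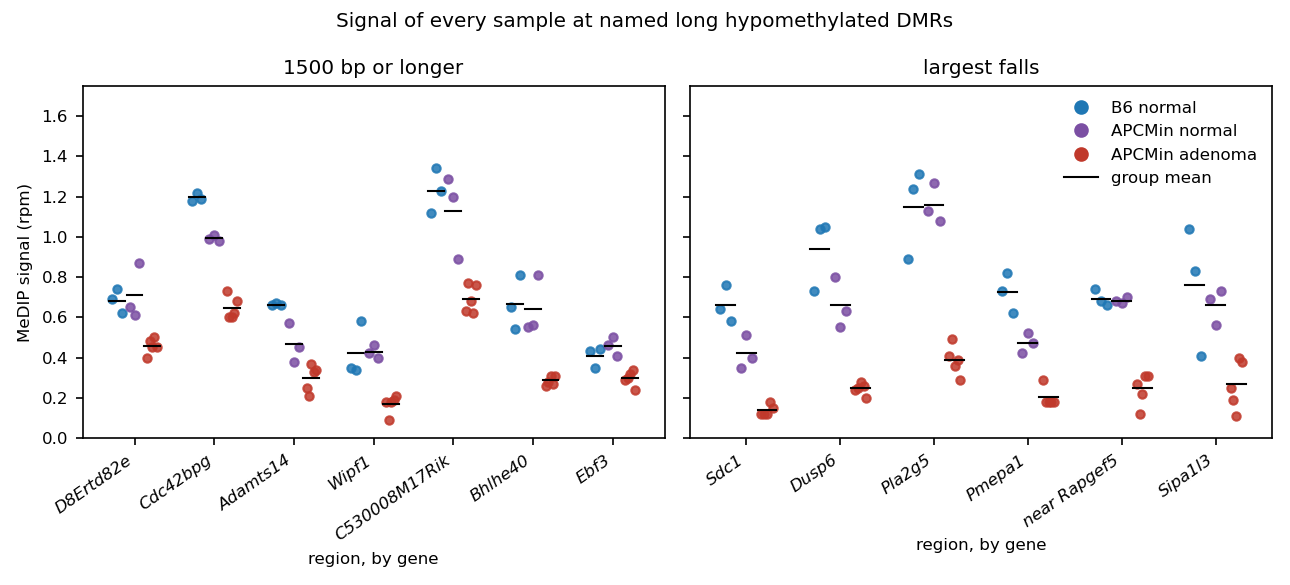
MeDIP signal in rpm (vertical axis) of every sample at the 7 longest regions (left) and at the 6 with the largest falls among separated regions of at least 0.5 rpm in normal tissue (right), by gene, with bars for group means. Adenomas (red) lie below both kinds of normal sample at all 13 regions, at 0.12 to 0.18 rpm in Sdc1 and at 0.20 to 0.28 rpm in Dusp6, and the gap is smallest, 0.01 rpm, at Adamts14, Ebf3 and Sipa1l3.

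Pmepa1 held the most members of any gene. It encodes a membrane protein that is induced by TGF-beta and restrains Smad signalling. All 5 of its long regions lay in its first intron, within 19.75 kb, and 17 hypomethylated and 0 hypermethylated DMRs of any length lay in the gene. Averaged over the 5 regions, the signal was 0.806 rpm in normal tissue and 0.356 rpm in adenoma, with log2 ratios from -1.36 to -0.85. In each of the 5, every adenoma lay below every normal sample.

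The region of Pmepa1 with the largest fall, chr2:173079001-173080250, was 22.4 kb from the start of the gene and had 0.73, 0.82 and 0.62 rpm in B6 normal, 0.42, 0.52 and 0.47 rpm in APCMin normal, 0.29 rpm in Ad4 and 0.18 rpm in each of the other adenomas. The region with the highest normal signal, 13.5 kb from the start, had 0.80 to 1.85 rpm in normal samples (median 1.11) and 0.33 to 0.66 rpm in adenomas. At chr2:173084251-173085500 the normal samples lay closer together, from 0.56 to 0.72 rpm (median 0.695), and adenomas from 0.25 to 0.36 rpm. The order of the adenomas changed from region to region: Ad4 was highest in the first of these and Ad4-1 in the second. The remaining 2 touch each other at 3.91 and 5.03 kb from the start, where normal means were 0.825 ± 0.121 and 0.770 ± 0.145 rpm and adenoma means 0.376 ± 0.108 and 0.406 ± 0.0754 rpm.

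**Figure D3:**
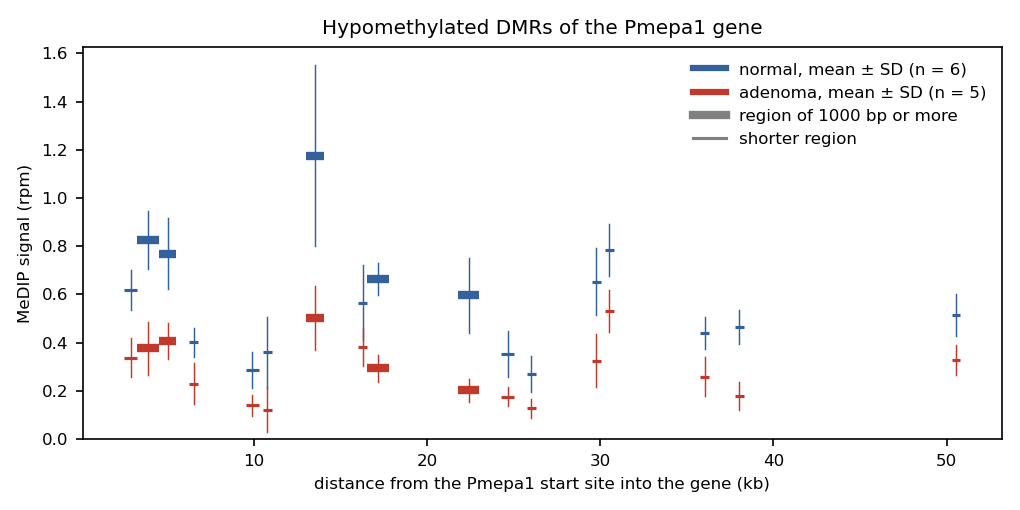
MeDIP signal in rpm (vertical axis) of the 17 hypomethylated DMRs in Pmepa1, by distance from its start site in kb (horizontal axis), with region widths to scale, and vertical bars for 1 SD over 6 normal samples (blue) and 5 adenomas (red). The 5 regions of 1000 bp or more (thick) lie between 3.91 and 22.4 kb from the start, with normal means of 0.597 to 1.18 rpm and adenoma means of 0.202 to 0.502 rpm.

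Because the table was built by joining windows that overlap, adjoining runs of windows were kept as separate regions. Joining windows that only touch gave 421 regions of at least 1000 bp in place of 373. The longest was then 3000 bp, at chr2:173096501-173099500 in the first intron of Pmepa1.

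The 222 regions that overlapped protein-coding genes lay in 205 genes, of which 13 held several. After Pmepa1 came Abcc4, Nhsl1, Sh3bgrl2 and Sipa1l3 with 3 each, and Auts2, Bcas3, Ckap4, Cuedc1, Nfib, Prdm16, Tnk2 and Uck2 with 2 each. Abcc4 encodes an exporter of cyclic nucleotides and prostaglandins, and its 3 regions averaged 0.864 rpm in normal tissue and 0.423 rpm in adenoma. The 3 regions of Sipa1l3 had log2 ratios from -1.27 to -1.04, all separated. In Sh3bgrl2 the 3 regions ran from -1.02 to -0.56, and in Nhsl1 from -1.08 to -0.44, so the ratios differed within a gene. Auts2, the longest of these genes, held 2 long regions with nearly equal ratios, -0.84 and -0.82.

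Ckap4, which encodes a membrane protein of the endoplasmic reticulum, is the shortest gene with several members, and its regions held 0.884 rpm on average in normal tissue and 0.499 rpm in adenoma. The region at chr10:83995501-83996500 overlapped the promoter and a CpG island and held 53 CpG sites. B6 samples had 0.67, 0.80 and 0.89 rpm there, APCMin normal samples 0.68, 0.56 and 0.56 rpm, and adenomas 0.38, 0.30, 0.27, 0.31 and 0.49 rpm. The groups were separated by 0.07 rpm between Ad7 and the lowest normal samples.

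Of the 373 regions, 20 overlapped a promoter at the 5 prime end of a gene (1000 bp upstream to 500 bp downstream), 15 of them of a protein-coding gene. Fxyd3, a small regulator of the sodium pump, had the largest fall of these 15: 0.31 to 0.39 rpm in normal samples (median 0.325) and 0.12, 0.04, 0.12, 0.10 and 0.19 rpm in Ad4 to Ad7 in the order above, a log2 ratio of -1.25. Plek2, a pleckstrin family protein of membrane and actin organisation, had 0.28 to 0.48 rpm in normal samples (median 0.40) and 0.11 to 0.18 rpm in adenomas. Its region overlapped a CpG island. Fxyd3 and Plek2 both had low levels in normal tissue compared with the median member.

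At the promoter of Tspo2, a relative of the mitochondrial translocator protein, normal samples ranged from 0.50 to 0.72 rpm and adenomas from 0.25 to 0.35 rpm. Cnn3, an actin-binding calponin, ranged from 0.36 to 0.47 rpm and from 0.14 to 0.22 rpm. Of the promoters named, that of Nat6, in a region whose middle lay in exon 2 of the neighbouring Hyal1, had the highest signal, with 1.06 to 1.63 rpm in normal tissue and 0.62 to 0.98 rpm in adenoma. At Dkkl1 the adenomas were far apart, from 0.13 rpm in Ad7 to 0.56 rpm in Ad4, below normal samples of 0.62 to 0.79 rpm. The remaining regions named for promoters were at the start of Ccdc159 (log2 ratio -1.04, with its middle in an exon of Tmem205), of Gdap2 (-0.91, with its middle in an exon of Wdr3) and of Tmem210 and Lrrc26 (-0.80).

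Gene lists of pathways and cell types of the intestine were next set against the regions. List sizes count the symbols written, and a few symbols were not in the gene annotation. It held 23 of 25 stem and crypt cell, 33 of 35 secretory cell, 54 of 56 blood and immune and 56 of 58 chromatin genes. Of the growth factor list it held 70 of 71 and of the transcription factor list 79 of 80. Of the Wnt list with 83 genes, 3 held a long region, all separated: Lrp4, a co-receptor (log2 ratio -0.93), Ephb3, a Wnt target that positions cells in the crypt (-0.83), and Tcf7l1, a TCF factor that mostly represses (-0.63). Ephb3 was also the only hit of 25 stem and crypt cell genes. Its region of 51 CpG sites had 0.76 to 1.20 rpm in normal samples (median 0.94) and 0.36 to 0.63 rpm in adenomas. The same Wnt list held 43 shorter hypomethylated DMRs.

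Of 49 enterocyte and brush border genes, 3 held a region: Cela1, a digestive elastase (1.05 ± 0.135 rpm in normal tissue and 0.454 ± 0.0568 rpm in adenoma, log2 ratio -1.13), Eps8, which caps and bundles actin in microvilli (0.632 ± 0.0985 and 0.272 ± 0.0550 rpm, -1.08), and Dgat2, which makes triglycerides (0.580 ± 0.174 and 0.266 ± 0.0451 rpm, -0.995). All 3 were larger falls than the median of -0.78 over the 373 regions, and adenomas were separated from normal tissue in each. The choice of regions used these same values. Secretory cell genes (35) and stromal, muscle, vessel and nerve markers (35) held 0 long regions and 9 shorter hypomethylated DMRs each. Of 56 blood and immune cell markers only Sdc1, which epithelial cells also express, held a long region, beside 11 shorter ones in the list.

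Among growth factor and immediate early genes, 2 of 71 held a region, Dusp6 and Fos, a component of AP-1. The Fos region, with its middle in the last exon, had one of the highest levels, 1.61 to 1.97 rpm in normal samples (median 1.80). Adenomas had 0.63 to 1.20 rpm there (log2 ratio -0.86). The TGF-beta and BMP list counted 6 regions in 2 of 46 genes, the 5 of Pmepa1 and 1 in the first intron of Smad3, which transmits TGF-beta signals to the nucleus (0.99 to 1.43 rpm in normal samples, 0.59 to 0.82 rpm in adenomas). With so many of the regions in a single gene, this list is mostly a count of Pmepa1.

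The actin, adhesion and polarity list had 4 of 79 genes with a region: Sdc1, Wipf1, Myo10, the motor of filopodia (-1.09), and Tns4, a tensin of focal adhesions (-0.65). Tns4 was the exception to separation, with 0.74 rpm in Ad7 and 0.72 rpm in B1. Hdac5, a histone deacetylase, was the only one of 58 chromatin and methylation genes, with 0.31 to 0.62 rpm in normal samples (median 0.52) and 0.10 to 0.24 rpm in adenomas (log2 ratio -1.14). None of the long regions lay in a gene for a DNA methyltransferase or a TET enzyme, which the same list covers.

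Of 80 intestinal and epithelial transcription factor genes, 4 held 6 regions: Nfib and Prdm16 with 2 each, Rara, a retinoic acid receptor, and Zbtb7c. Their median log2 ratio of -0.67 was the weakest of the lists with several regions, and 4 of the 6 were separated. Zbtb7c had the largest fall, from 1.09 ± 0.156 to 0.490 ± 0.170 rpm (-1.08), with adenomas spread from 0.27 rpm in Ad5 to 0.66 rpm in Ad4. In the last intron of Nfib the adenoma Ad4, at 0.42 rpm, was above B2 at 0.34 rpm. The lists were written with earlier results of these data known, so their counts are a description. Shorter hypomethylated DMRs numbered 17 in the enterocyte list, 59 in the growth factor list and 54 in the TGF-beta and BMP list. There were 87 in the actin list, 22 in the chromatin list, 75 in the transcription factor list and 13 in the stem and crypt cell list. Long regions overlapped 205 protein-coding genes in all, and the lists were not set against a share over all genes.

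Every long region had all of its 500 bp windows among the deposited windows, 1168 in all. In the 332 regions of 1000 bp the middle window had the highest normal signal in 271 and the lowest ratio in 183. Medians for the 3 windows were 0.506, 0.796 and 0.505 rpm in normal tissue and 0.276, 0.410 and 0.272 rpm in adenoma, and the median log2 ratio was -0.73, -0.85 and -0.73. The ratio was thus somewhat lower in the middle than at the edges. Each of these windows had been listed for a lower signal in adenoma, so a fall at both edges was given by the choice of regions. A region ends where windows stop passing, which also favours smaller falls at its edges. Adenomas were separated from normal samples in every window of 141 regions, and in no window of 15. Counted by window, 71.3% of the windows in long regions were separated, against 51.6% of all 11567 deposited hypomethylated windows, and these counts too follow from how the regions were chosen.

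**Figure D4:**
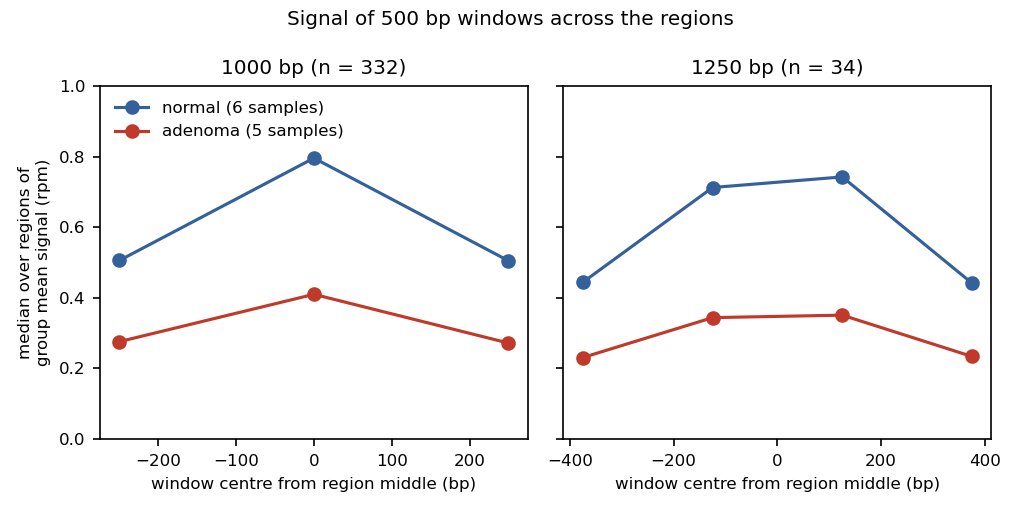
Median over regions of the group mean MeDIP signal in rpm (vertical axis) for each 500 bp window, by the distance of its centre from the middle of the region in bp (horizontal axis), for the 332 regions of 1000 bp (left) and the 34 of 1.25 kb (right). Normal tissue (blue) peaks at 0.796 rpm in the middle window of the 1000 bp regions, and adenoma (red) at 0.410 rpm, and both are lower at the edges.

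Whether the regions already differed in normal intestine of APCMin mice was asked by comparing the 3 APCMin normal with the 3 B6 normal samples. Both groups stood on the normal side of the rank test against adenoma when the DMRs were defined. A region already low in APCMin normal tissue was thus less likely to be listed. The number of calls is therefore limited in part by how the regions were chosen. A limma model over all 13980 merged DMRs called 0 of them at an adjusted p under 0.05 (0%), and 0 of the 373. At an unadjusted p under 0.05 it gave 604 of 13980 (4.32%) and 25 of the 373 (6.70%), 22 of them lower in APCMin normal tissue (2.93% of all DMRs were) and 3 higher (1.39% of all DMRs). The 25 became 11 without B3 and 11 without N4. The lowest adjusted p of a member was 0.969 (limma, Benjamini-Hochberg). The median log2 difference, APCMin minus B6, was -0.06 over the 373 regions with a median SE of 0.204, and -0.02 over all DMRs. It was -0.02 over the 373 regions with library set as a term and -0.03 without B3. In simulated data, a change of 1 log2 unit was called in 123 of 200 regions and a change of 0.5 in 0 of 200, so small differences could not be seen with 3 samples a group.

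The sample values still differed in named regions. All 3 APCMin normal samples lay below all 3 B6 samples in 31 of the 373 regions (8.31%, against 4.82% of all merged DMRs) and above them in 9 (2.41%, against 3.24%). Sdc1 was such a region, with 0.660 ± 0.0917 rpm in B6 and 0.420 ± 0.0819 rpm in APCMin normal tissue, a log2 difference of -0.60 ± 0.205 (SE) that did not pass (limma adjusted p = 0.999). Myo10 had 1.37 ± 0.237 and 0.853 ± 0.153 rpm (log2 difference -0.65), and Hdac5 0.607 ± 0.0231 and 0.367 ± 0.0814 rpm (-0.67), both also at an adjusted p of 0.999 in limma. Measured from each normal group separately, the median log2 ratio of adenoma was -0.82 against B6 and -0.75 against APCMin normal tissue.

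Adenomas were also compared with the normal sample of their own animal. Ad4 and Ad4-1 lay below N4 in 369 of the 373 regions each, Ad5 below N5 in 372 and Ad6 below N6 in 368. In the shorter hypomethylated DMRs the same comparisons gave 97.8%, 98.2%, 98.3% and 96.6%, close to the shares of the long ones, which were 98.9%, 98.9%, 99.7% and 98.7%. They kept 60.6%, 52.1%, 53.7% and 59.6% of the mean signal of that sample. The pair from animal 4 differed, with Ad4-1 below Ad4 in 242 regions and above it in 117. The order was the same in the 8472 shorter hypomethylated DMRs, with Ad4-1 below Ad4 in 4703 and above it in 3349.

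Among adenomas, Ad4-1 was strictly the lowest in 118 regions, Ad5 in 82, Ad7 in 58, Ad6 in 42 and Ad4 in 36. Ad6 was most often the highest, in 99. Relative to the mean, adenomas varied somewhat more than normal samples, with a median coefficient of variation of 21.03% against 16.4%, and it was higher in adenoma in 251 regions (67.3%, against 67.7% of the shorter hypomethylated DMRs). In rpm the SD was larger in adenoma in only 89 regions, so the higher coefficient went with the lower mean. The regions that varied most among adenomas, with at least 0.5 rpm in normal tissue, were 2 intergenic ones on chromosome 13, Sipa1l3 and Acss1, an acetyl-CoA synthetase gene. Near Ror2 on chromosome 13 Ad4-1 had 0.12 rpm and Ad4, from the same animal, 0.55 rpm, while normal samples had 0.77 to 1.10 rpm.

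The rule used length on top of the signal limits of the DMR list, and neither sequence nor position directly. What the regions hold in sequence and position is described beside the shorter ones, and genome tiles passed no signal limit. A median of 18 CpG sites (6 to 70) was found in each long region, and 11 in its central 500 bp, against 9 in the central 500 bp of the 750 bp regions, 8 in the 500 bp regions and 3 in all 500 bp tiles of the genome. MeDIP signal grows with the number of methylated CpGs, and the part of CpG content in the choice of regions was not tested. By CpG content, the median normal signal went from 0.477 rpm in the 85 regions with fewer than 15 CpGs to 0.813 rpm in the 60 with more than 25, while the median log2 ratio was -0.73 in the first and -0.78 in the second.

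CpG islands, called from the sequence (300 bp or longer, 50% GC, and 0.6 of the CpGs that base composition predicts), overlapped 98 of the 373 regions (26.3%), against 12.1% of the 750 bp and 8.05% of the 500 bp hypomethylated DMRs, 14.5% of hypermethylated DMRs and 3.61% of genome tiles. A longer region has more room to touch a feature, and by the middle base alone the share was 18.2%, against 4.98% of the shorter regions. With strict limits of 500 bp, 55% and 0.65, only 16 regions (4.29%) overlapped an island, so most of the islands met only the looser limits. Regions that overlapped islands had a median log2 ratio of -0.76.

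Introns were overlapped by 223 regions (59.8%), exons by 81 (21.7%) and promoters by 20 (5.36%), and 135 (36.2%) were intergenic. In 500 bp hypomethylated DMRs these shares were 53.8%, 12.6%, 2.92% and 42.5%. By the middle base alone, which takes no account of length, introns were at 49.9% in the long and 50.1% in the 500 bp regions, exons at 11.3% and 5.90%, promoters at 3.49% and 2.12%, and intergenic sequence at 37.3% and 43.2%. Where the middle of a long region lay in an intron of a protein-coding gene, it was the first intron in 62 of 173 (35.8%), close to 32.7% in the shorter regions. The 97 hypermethylated DMRs of at least 1000 bp looked different, with 59.8% at CpG islands, 54.6% at exons and 14.4% at promoters. Long hypomethylated regions with a promoter had a median log2 ratio of -0.89, those with exons -0.77, with introns -0.77 and between genes -0.79.

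The median distance from the middle of a region to the nearest gene start was 27.5 kb, against 35.5 kb for shorter regions. Within 5 kb of a start lay 50 regions (13.4%), against 11.1% of the shorter hypomethylated and 13.98% of the hypermethylated DMRs. Another hypomethylated DMR was found within 5 kb of 75 regions (20.1%), against 14.8% of the 750 bp regions, whereas a hypermethylated DMR lay that near in 10 (2.68%, against 3.63% of the 750 bp regions). Chromosome 5 held the most regions, 31, followed by chromosome 2 with 30 and chromosomes 4 and 11 with 27 each. Chromosome 19 had the highest density, 2.41 per 10 Mb, and chromosome X, with 2 regions, the lowest at 0.123 per 10 Mb. Chromosome X held only 42 hypomethylated DMRs of any length. As a share of the hypomethylated DMRs of a chromosome, long regions were 5.00% on chromosome 5, 4.71% on 19 and 4.76% on X. These lay near the 4.22% over all, and the range was from 2.37% on chromosome 8 to 5.24% on chromosome 17.

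Motifs were searched on both strands in the central 500 bp of each region, so that regions of all lengths offered the same space. The AP-1 motif TGANTCA was present in 120 of the 373 long regions (32.2%), 31.7% of the 750 bp regions, 23.5% of the 500 bp regions, 11.3% of hypermethylated DMRs and 14.3% of genome tiles. The share in long hypermethylated DMRs was 6.19%. Long regions with the motif had a median log2 ratio of -0.79 and those without it -0.76, so its presence went with no clear difference in the fall. The regions at Fos, Cela1, Eps8, Smad3, Cdc42bpg and C530008M17Rik were among those that held it.

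The E-box CACGTG, which Myc and related factors read, was found in 14.5% of long regions and 4.83% of tiles. The ETS motif CCGGAAG was in 4.02% and 1.40%, and the SP/KLF motif GGGCGGG in 6.97% and 2.37%. They were likewise more frequent than in tiles, but these 3 motifs contain a CpG, and tiles hold fewer CpGs. Shorter hypomethylated DMRs held the E-box in 12.04%, the ETS motif in 3.47% and the SP/KLF motif in 4.39%. Hypermethylated DMRs held them in 9.02%, 3.08% and 7.21%, so SP/KLF was no more frequent in long regions than there. The part of CpG content in these shares was not tested. The TCF/LEF motif CTTTGAT, through which Wnt signals reach genes, was in 9.65% of long regions and 10.1% of tiles. Letters read by intestinal differentiation factors were not more frequent either. AGATAAG, read by the GATA family, was in 4.83% of long regions and 7.31% of tiles, and TTTATGG, read by the CDX family, in 2.95% and 7.85%. CAAAGTCCA, read by HNF4, was in 0.536% and 0.6503%. The RUNX motif TGTGGTT stood at 10.99% against 11.3% in tiles, and the FOX motif TGTTTAC at 5.90% against 7.38%. In the shorter hypomethylated DMRs the shares were 10.2% for TCF/LEF, 7.60% for GATA, 6.93% for CDX, 0.921% for HNF4, 12.1% for RUNX and 8.56% for FOX. Median GC was 49.2% in the central 500 bp of long regions and 41.6% in tiles. The part of base composition in the lower shares was not tested. None of the 10 motifs contains another, and a match does not show that a factor binds.

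**Figure D5:**
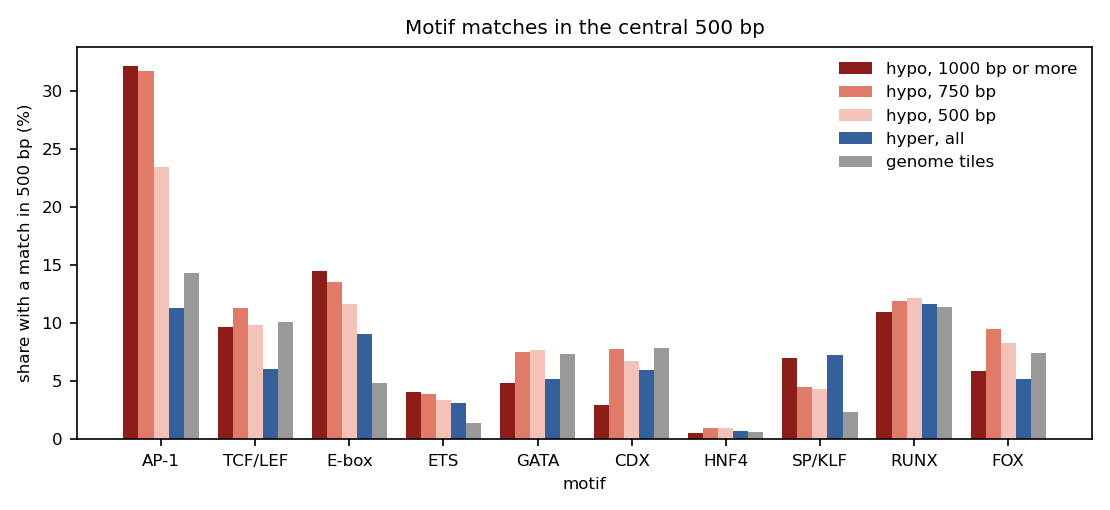
Share of regions with a match in their central 500 bp, in percent (vertical axis), for 10 motifs (horizontal axis) in hypomethylated DMRs of 1000 bp or more, of 750 bp and of 500 bp, in hypermethylated DMRs and in 500 bp genome tiles. AP-1 stands at 32.2% in the long regions and 14.3% in tiles, while TCF/LEF is at 9.65% and 10.1%.

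Input DNA, sequenced without immunoprecipitation for B3, N4 and Ad7, gives the signal without the antibody. Mean input over the 373 regions was highest in B3 (0.195 rpm), followed by N4 (0.160 rpm) and Ad7 (0.149 rpm), with no replicate in any group. Ad7 over N4 was 0.932 in input and 0.594 in MeDIP, and Ad7 over B3 was 0.764 in input and 0.525 in MeDIP. Between the normal samples, N4 over B3 was 0.821 in input and 0.885 in MeDIP. In MeDIP Ad7 was below both normal samples in 369 regions, and in input in 131 (35.1%), with N4 lowest in 107 and B3 in 107. In the 8472 shorter hypomethylated DMRs Ad7 was below both in 8124 in MeDIP and in 29.8% in input. In hypermethylated DMRs it was below both in 29.3% in input. Input of Ad7 over B3 was 0.844 in the shorter and 0.761 in the hypermethylated DMRs, and Ad7 over N4 was 0.963 and 0.968.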

How the data were processed

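MeDIP-seq was measured in 11 samples, and 3 input libraries were sequenced. The authors aligned single-end reads of 36 nt to mm9 with Bowtie 0.12.5, kept uniquely placed reads, collapsed those that begin at 1 position and lengthened the rest to 300 nt. The deposited rpm values, made by the authors, are coverage scaled to 1000000 uniquely aligned reads, in 500 bp windows every 250 bp, given to 2 decimals. The authors listed windows with a Wilcoxon p-value under 0.01, a ratio past 1.33 and a mean of at least 0.25 rpm, and merged overlapping ones. These p-values and ratios were not used. The rpm values carry no read counts. Library depth was not used here, and no interval for counting error is given.

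Members are merged hypomethylated DMRs of at least 1000 bp. Members, gene lists, tests and the AP-1 stretches shown were chosen with earlier results of these data known. Regions were named by rule: those of 1500 bp or more, the 6 lowest ratios among separated regions with at least 0.5 rpm in normal tissue, the 4 with the most CpG sites, up to 10 at protein-coding promoters, those in listed genes, the 4 most variable among adenomas with at least 0.5 rpm in normal tissue, and genes with at least 3 members. Ratios are log2 of group means after adding 0.05 rpm. The normal groups were compared with limma 3.58.1 in R 4.3.3 on log2(rpm + 0.05) over all 13980 merged DMRs, with the 3 groups in 1 fit and Benjamini-Hochberg adjustment, tested on simulated data. The labels name the animal and a library set number of each sample, and p-values measure the spread between these samples. Genes came from gencode M1 on the same build, and Python 3.11.15 with pandas 2.3.3 was used. Repeats were not analysed here, and the RNA samples gave no values that were used. Animals 4, 5 and 6 gave both tissues. Deviations from group means correlated at 0.02 to 0.10 in 4 same-animal pairs and at -0.06 to 0.03 in 11 others, and the animal was used as a block in an alternative fit. The other alternatives were the pseudocount, the length limit, merging, single normal groups, library sets, windows, promoter, island and overlap definitions, and leaving out each sample.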

Additional observations from a re-analysis of the deposited data

Results flagged for a closer look

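In 118 groups of samples, normal and adenoma at each of the 58 named regions and for the mean over the long regions, 10 held a sample that stood apart from the others of its group by Dixon's gap test at the 95% level, 6 among adenomas and 4 among normal samples. Chance gives about 1 in 20 groups, and no cause was tested. Ad4-1 was low at Wipf1, with 0.09 rpm against 0.18 to 0.21 rpm in the other adenomas, at Hdac5, with 0.10 against 0.20 to 0.24 rpm, and at chr2:173097501-173098750 in Pmepa1, with 0.19 against 0.38 to 0.45 rpm. Ad4 was high at chr2:173079001-173080250 in Pmepa1, with 0.29 rpm against 0.18 rpm in each of the others, and at chr14:119057251-119058250 in Abcc4, with 0.56 against 0.27 to 0.32 rpm. Ad7 was high at Acss1, with 0.55 against 0.22 to 0.31 rpm. Among normal samples, N5 was high at Cnn3 (0.47 against 0.36 to 0.40 rpm) and low at Tcf7l1 (0.43 against 0.51 to 0.54 rpm). B3 was high at chr9:83446501-83447500 in Sh3bgrl2 (0.81 against 0.48 to 0.58 rpm) and at chr10:18225001-18226000 in Nhsl1 (0.78 against 0.45 to 0.55 rpm). The same sample, B3, had the highest mean over the long regions.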

How the results depend on the processing

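The median log2 ratio of the long regions, -0.78, became -0.41 with 0.5 rpm added, -0.87 with nothing added and -0.86 for regions of at least 1.25 kb. Leaving out each sample gave -0.82 to -0.75. With the animal as replicate block in the samples of animals 4, 5 and 6 it was -0.76, as without the block. Within library sets 4, 9 and 10 it was -0.79, -0.82 and -0.79. The values of sets 9 and 10 were added after seeing the data. Separated regions, 301, ranged from 307 to 322 on leaving out a sample and fell to 197 when a gap of over 0.05 rpm was required. Leaving out a sample can only raise this count or leave it unchanged. Promoters of all transcripts gave 9.38%, strict islands 4.29%, and the middle base alone gave 18.2% at islands, 11.3% at exons and 49.9% at introns (50.1% in 500 bp regions). Members with an unadjusted p under 0.05 between the normal groups ranged from 11 to 37. Between the normal groups, members called stayed at 0 under every alternative run, while over all DMRs 2 were called with 0.5 rpm added and 6 without N6. Of 1334 values of named regions under 23 alternatives, 126 moved by more than the SD among adenomas and 0 changed direction. The regions were listed for a lower signal in adenoma on the same samples, so a change of direction was unlikely. The counting error of single values was not computed here.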
